A study of Mus musculus with 13 samples.

Results

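The lysosome is the acidic compartment in which cells break down proteins, glycans and lipids, and 37 of its genes were followed here through RNA sequencing of mouse brain and of cultured mouse glia. They were taken by symbol: 9 cysteine cathepsins, 3 aspartic and serine proteases, 8 glycosidases, 3 sulfatases, 3 lipid hydrolases, 2 cofactor precursors, 2 cholesterol export proteins, 6 membrane proteins and the transcription factor Tfeb. All 37 symbols were present in both deposited tables, among 23238 symbols for tissue and 24542 for culture. The tissue table had 7 libraries made from hippocampi of 3xTg mice, an Alzheimer model with a presenilin mutation and with mutant human transgenes for tau and the amyloid precursor, both driven by a neuronal promoter. Of these, 3 came from mice given control adeno-associated virus 9 (AAV9) and 4 from mice given AAV9 carrying Nurr1 (symbol Nr4a2) and Foxa2, written N+F, and the treatment field of all 7 reads amyloid beta. The culture table had 6 libraries, 1 per group, of hippocampal or cortical glia taken from ICR pups on postnatal day 1. In each region the groups were control lentivirus without amyloid beta (called untreated), control lentivirus with amyloid beta (called the amyloid beta control) and N+F lentivirus with amyloid beta. The sources used here give no ages or numbers of mice, no pooling of pups, and no dose or duration of amyloid beta. Since nothing ties tissue replicates to separate animals, a p-value here measures spread between libraries and that spread may be technical.

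Lysosomal enzymes are made as precursors in the endoplasmic reticulum, tagged with mannose 6-phosphate and carried to endosomes, where low pH activates them. Heavily glycosylated membrane proteins such as LAMP1 and LAMP2 line the organelle and shield it from its own enzymes. Many of these genes carry a palindromic E-box near the transcription start, the core of the CLEAR element through which TFEB and its relatives act. In brain, microglia and astrocytes hold many lysosomes and clear debris, and loss of single members causes storage disease of neurons, for example of Hexa in Tay-Sachs disease or Tpp1 in a form of Batten disease.

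The promoter windows of 3 members are shown because the E-box is the sequence feature that links the enzymes to Tfeb. They come from RefSeq on GRCm38.p6 and run 5′ to 3′ on the gene's strand, from 250 bases before the transcription start to 50 after it. Capitals mark each CACGTG together with a T directly before it or an A directly after it. Lamp1 (chr8:13158911-13159210, + strand) is a membrane protein, Ctsd (chr7:142387778-142388077, − strand) the main aspartic protease, and Mcoln1 (chr8:3500269-3500568, + strand) a calcium channel of the lysosomal membrane.
Lamp1: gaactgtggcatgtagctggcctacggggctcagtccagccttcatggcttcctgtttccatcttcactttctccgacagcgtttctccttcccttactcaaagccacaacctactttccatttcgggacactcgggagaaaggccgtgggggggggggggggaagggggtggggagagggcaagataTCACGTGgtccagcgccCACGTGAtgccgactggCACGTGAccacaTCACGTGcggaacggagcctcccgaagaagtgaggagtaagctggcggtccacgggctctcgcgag
Ctsd: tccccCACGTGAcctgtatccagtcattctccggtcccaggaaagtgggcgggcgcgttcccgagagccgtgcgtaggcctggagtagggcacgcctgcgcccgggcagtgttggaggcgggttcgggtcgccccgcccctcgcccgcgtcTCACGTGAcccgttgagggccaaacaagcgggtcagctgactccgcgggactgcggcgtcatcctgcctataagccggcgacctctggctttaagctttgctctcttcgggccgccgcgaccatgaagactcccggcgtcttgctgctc
Mcoln1: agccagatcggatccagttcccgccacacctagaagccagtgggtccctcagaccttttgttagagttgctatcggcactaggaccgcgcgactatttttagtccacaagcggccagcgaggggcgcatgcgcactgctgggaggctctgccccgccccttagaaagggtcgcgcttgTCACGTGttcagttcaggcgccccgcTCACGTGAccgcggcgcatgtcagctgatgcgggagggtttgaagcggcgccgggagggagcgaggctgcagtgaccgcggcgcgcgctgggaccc
The Lamp1 window held 4 copies, beginning 61, 45, 28 and 15 bases before the start, while Ctsd held copies 245 and 98 bases before it and Mcoln1 copies 71 and 45 bases before it. Of the 37 members 33 had an entry, and the others (Ctsb, Ctsh, Asah1 and Npc1) are named only. CACGTG, which reads the same on both strands, lay in the windows of 11 of those 33 members: Ctsf, Ctsl, Ctsd, Ctsa, Gaa, Naglu, Glb1, Arsa, Sgsh, Lamp1 and Mcoln1. By window that was 29.7% for the members, against 7.84% of 21263 windows of protein-coding genes. The longer TCACGTG, counted on both strands and contained within the first motif's matches, was in 24.3% of member windows against 4.39%. The full palindrome TCACGTGA was in 8.11% of member windows (Ctsd, Ctsa and Mcoln1) against 1.23%. A match describes letters in the window, not a bound site.

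Read counts per gene were scaled to CPM (counts at a common library size), in tissue with TMM factors, which correct for differences in library composition, and in culture by the library total alone. Totals ran from 10194437 to 25139406 counts in tissue and from 52189025 to 78273121 in culture, and the members took 0.240 to 0.343% of tissue counts and 0.499 to 2.17% of culture counts. In culture Foxa2 had 0 counts in all 4 libraries without the N+F virus, and reached 140.3 CPM in the hippocampal and 13.5 CPM in the cortical N+F library. Nr4a2 stood at 488 CPM in the hippocampal N+F library and 3.35 CPM in its amyloid beta control, and at 36.9 and 5.14 CPM in the cortical pair. In the untreated libraries Nr4a2 was higher than in the amyloid beta controls, at 58.3 CPM in hippocampal and 19.0 CPM in cortical glia. In tissue neither gene separated the groups without overlap. Nr4a2 was at 19.4 to 45.1 CPM with control AAV9 and 22.1 to 34.2 CPM with N+F. Foxa2 had few counts throughout. Control libraries 1, 2 and 3 held 5, 1 and 1 Foxa2 counts (0.199, 0.0827 and 0.0795 CPM). N+F libraries 1, 2 and 4 held 26, 5 and 6 (2.55, 0.449 and 0.489 CPM), each above every control in CPM. N+F library 3, at 1 count (0.0883 CPM), lay inside the control range. Given this overlap and these low counts, the tissue groups are called by their labels alone. The culture libraries also differed in the other cells they held. Summed over the 9 neuronal markers, the untreated libraries had 7774 CPM in hippocampal and 8461 CPM in cortical glia, against 367 to 395 CPM in the 4 libraries with amyloid beta. The 14 microglial markers summed to 537 and 563 CPM without amyloid beta and to 129 to 237.5 CPM with it. Sall1 ran against the others, at 30.1 and 30.3 CPM untreated and 41.6 to 120.4 CPM with amyloid beta. Without Sall1, set aside after its values were seen, the sums were 507 and 532 CPM untreated, 46.5 and 103 CPM in the amyloid beta controls, and 18.2 and 196 CPM with N+F, hippocampal glia first. The 6 oligodendrocyte markers summed to 8807 and 7424 CPM untreated and to 171 to 438 CPM with amyloid beta. The 5 choroid plexus markers summed to 4340 and 497 CPM untreated and to 1.15 to 12.9 CPM with amyloid beta. The 8 astrocyte markers summed to 5438 to 8919 CPM in all 6 libraries, but single markers moved in both directions. In the amyloid beta controls 3 of them were at least 2-fold above untreated in both regions, and 2 at least 2-fold below. The 7 markers of fibroblasts and mural cells (cells of the vessel wall) summed to 148 to 336 CPM in 5 culture libraries and to 8448 CPM in the cortical N+F library.

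Levels were compared between genes per kilobase of exon. In all 7 tissue libraries Psap, the precursor of the saposins that assist sphingolipid breakdown, was the most abundant member. It had 261 CPM per kilobase in control library 1, where Ctss (a microglial cysteine protease) followed with 173 and Ctsd with 115. Psap also led in both untreated glial libraries, at 599 CPM per kilobase in hippocampal and 593 in cortical glia, with Ctsd next at 183 and 161. In the 4 libraries with amyloid beta Ctsd came first and Psap second. Ctsd reached 1484 and 1393 CPM per kilobase in the hippocampal and cortical amyloid beta controls, where Psap had 920.2 and 900.1. Ctss was ranked 6 of the 37 in both untreated libraries and 30 and 25 in the amyloid beta controls.

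In hippocampus the comparison asks whether N+F delivered by AAV9 changed lysosomal transcripts in 3xTg mice. No member passed the test, but most lay slightly lower in the libraries labelled N+F. All 37 passed the filter on low counts, and 30 had a negative log2 fold change, with a median of −0.17. Over all 15523 genes tested the median was −0.00 and 7882 were negative. By edgeR's quasi-likelihood test 0 of 37 had a Benjamini-Hochberg adjusted p under 0.05, where 0.110% of all genes did. At an unadjusted p under 0.05, 5 members were lower (Ctsk, Ctsd, Grn, Cd63 and Lipa) against a background of 4.36% of all genes, and 0 were higher against 4.10%. The number lower was 1 without control library 2 and 8 without N+F library 1. The groups did not overlap for 3 members that were lower (Ctsk, Ctsd and Npc2; 4.19% of all genes) and for 1 that was higher (Gaa; 3.92%). For 26 of the 37 the log2 fold change was smaller than 0.3 in either direction. DESeq2 called 1 member, Ctsk, with an adjusted p of 0.0242, and called 145 of the 15523 genes where edgeR called 17. In such bulk samples, fewer cells of a type and less RNA per cell cannot be told apart.

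**Figure D1:**
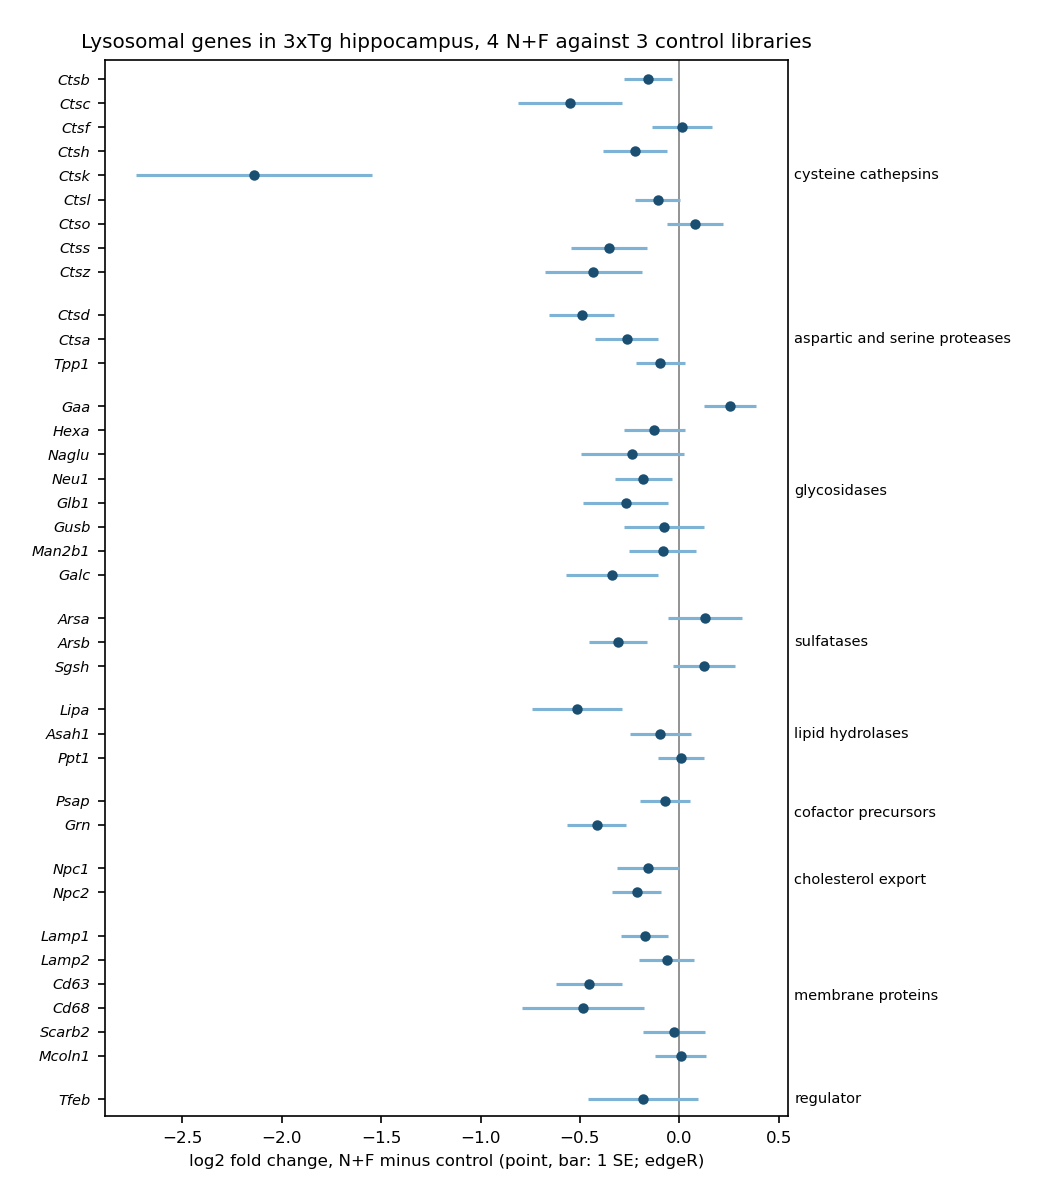
Log2 fold change of each of the 37 members in hippocampus (x axis, N+F minus control AAV9; points, edgeR estimates; bars, 1 standard error), ordered by role. Ctsk lies farthest to the left at −2.14, 30 points lie below 0, and no member passed the adjusted threshold.

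Among the proteases, Ctsk, a collagen-degrading enzyme best known from osteoclasts, had the largest difference. It was at 2.58, 14.0 and 6.24 CPM in the 3 control libraries and at 2.41, 0.358, 2.47 and 1.60 CPM in the 4 N+F libraries. All N+F values were below all controls, yet control library 1 was close to the higher N+F libraries and most of the spread lay within the controls. The log2 fold change was −2.14 ± 0.59 (SE; edgeR adjusted p = 0.279), and −1.35 without control library 2 (adjusted p = 0.708). The markers of fibroblasts and mural cells were high in the same pair of control libraries, summing to 55.9, 324 and 311 CPM in controls and 27.1 to 55.0 CPM with N+F, with all 7 markers lower (median log2 fold change −1.11). Their part in the Ctsk values was not tested.

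Ctsd, the main aspartic protease of the lysosome, was at 269, 366 and 232 CPM in controls and 231, 206, 207 and 179 CPM with N+F. The lowest control and the highest N+F library differed by less than the spread within either group. Its log2 fold change was −0.49 ± 0.16 (SE; edgeR adjusted p = 0.376), or −0.29 without control library 2. Ctsc, which activates granule serine proteases, had 10.4, 8.44 and 8.69 CPM in controls and 9.64, 4.74, 6.12 and 4.80 CPM with N+F. N+F library 1 lay among the controls and the other 3 below them (log2 fold change −0.55 ± 0.26, edgeR adjusted p = 0.616). The microglial proteases Ctss and Ctsz had fold changes of −0.35 and −0.43 on the log2 scale. The general cysteine proteases Ctsb and Ctsl stood at −0.16 and −0.11, the aminopeptidase Ctsh at −0.22, and Ctsf and Ctso at 0.01 and 0.08. Ctsa, which also protects beta-galactosidase and neuraminidase, was at −0.27, and the tripeptidase Tpp1 at −0.10.

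**Figure D2:**
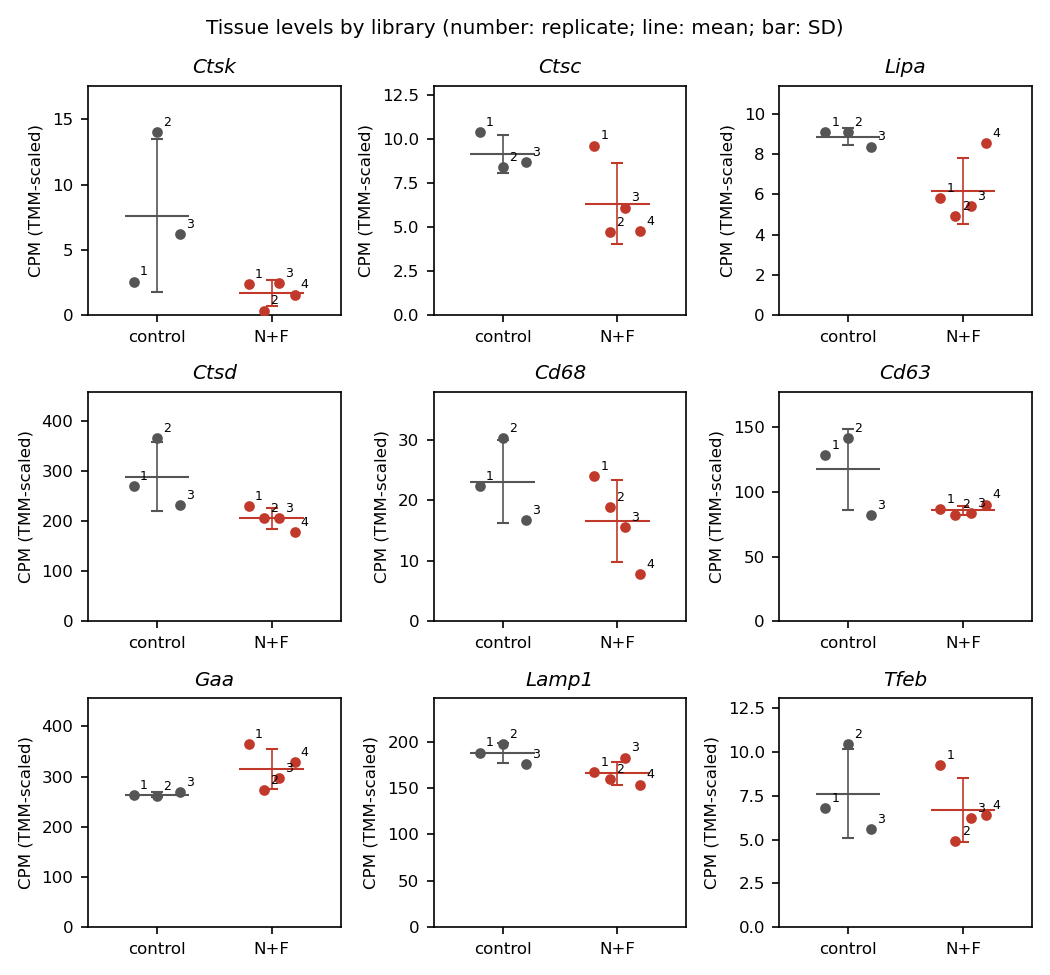
Level of selected members in each hippocampus library (y axis, TMM-scaled CPM from 0, a scale per gene; points, single libraries with their replicate number; lines, group means; bars, SD) for 3 control and 4 N+F libraries. The N+F values of Ctsk and Ctsd lie below all controls and those of Gaa above all controls, with small gaps between the groups.

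The 8 glycosidases, which remove sugars from glycans and glycolipids, had a median log2 fold change of −0.15, with 7 of 8 negative. The exception was Gaa, the acid alpha-glucosidase that degrades glycogen, singled out after its values were seen. It was at 263, 261 and 269 CPM in controls and at 365, 272, 297 and 329 CPM with N+F, so that the groups did not overlap but N+F library 2 stood just above the highest control. The log2 fold change was 0.26 ± 0.13 (SE; edgeR adjusted p = 0.658). The remaining glycosidases ran from Galc (galactosylceramidase of myelin lipid turnover, −0.34) and Glb1 (beta-galactosidase, −0.27) through Naglu (heparan sulfate breakdown, −0.24), Neu1 (sialidase, −0.18) and Hexa (beta-hexosaminidase alpha, −0.13) to Gusb (beta-glucuronidase, −0.08) and Man2b1 (alpha-mannosidase, −0.08). The sulfatases Arsa and Sgsh stood at 0.13 and 0.12 and Arsb at −0.31.

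Lipa, the acid lipase that frees cholesterol from its esters, was at 9.09, 9.11 and 8.38 CPM in controls and 5.82, 4.92, 5.43 and 8.56 CPM with N+F. N+F library 4 fell inside the control range and the other 3 below it (log2 fold change −0.51 ± 0.23, edgeR adjusted p = 0.563). Acid ceramidase Asah1 and palmitoyl thioesterase Ppt1 were at −0.10 and 0.01. Grn, the progranulin precursor of lysosomal granulins, was at 53.9, 64.5 and 46.2 CPM in controls and 49.4, 36.7, 40.0 and 38.3 CPM with N+F, and was chosen after its values were seen. Only N+F library 1 reached into the control range (log2 fold change −0.42 ± 0.15, edgeR adjusted p = 0.445). Psap differed little, at 699 to 723 CPM in controls and 619.7 to 730.0 CPM with N+F (−0.07 ± 0.13). Of the 2 proteins that hand cholesterol out of the lysosome, soluble Npc2 stood at 39.1, 46.2 and 38.4 CPM in controls and 35.2, 35.9, 37.5 and 33.3 CPM with N+F, without overlap but with a fold change of only −0.22 ± 0.12 on the log2 scale (edgeR adjusted p = 0.708). Its membrane partner Npc1 was at −0.16.

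Of the membrane proteins, the tetraspanin Cd63 was at 128, 142 and 82.3 CPM in controls and 86.6, 82.5, 83.8 and 90.1 CPM with N+F. The N+F libraries sat together at the level of control library 3, below the other controls (log2 fold change −0.45 ± 0.17, edgeR adjusted p = 0.449). Cd68, a macrophage membrane protein, was at 22.3, 30.3 and 16.7 CPM in controls and 24.0, 18.9, 15.6 and 7.76 CPM with N+F, with overlapping groups (−0.48 ± 0.31, edgeR adjusted p = 0.749). Lamp1, the standard lysosomal marker, was at 188, 198 and 176 CPM in controls and 167, 159.6, 183 and 154 CPM with N+F. Of the N+F libraries only number 3 lay within the control range (−0.17 ± 0.12, edgeR adjusted p = 0.762). Lamp2 was at −0.06, the enzyme receptor Scarb2 at −0.03 and Mcoln1 at 0.01. Tfeb itself was at 6.80, 10.4 and 5.61 CPM in controls and 9.24, 4.92, 6.22 and 6.40 CPM with N+F, with overlapping groups (−0.18 ± 0.28, edgeR adjusted p = 0.920). The 14 microglial markers were also mostly lower with N+F, with 12 of 14 log2 fold changes negative and a median of −0.28. They summed to 536, 683 and 572 CPM in the control libraries and to 582, 475, 511 and 376 CPM in the N+F libraries. All 14 passed the count filter. Other markers differed more between the groups. Those of hippocampal neurons (Fibcd1, Spink8, Neurod6, Wfs1, Neurod2 and Prox1) had a median log2 fold change of −1.09. By edgeR 3 of 6 were called lower, where 16 of all 15523 genes were. Another 1 of the 6 was higher at an unadjusted p under 0.05 in the same test. Endothelial markers had a median of −0.74, with 6 of 6 negative, and striatal markers, from a neighbouring region, of 0.97, with 6 of 6 positive. The 5 choroid plexus markers varied widely within both groups. They summed to 2854, 2804 and 1132 CPM in controls and to 250, 842, 163 and 3934 CPM with N+F. The part of these markers in the members' values was not tested.

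Other genes of the pathway showed no called change in tissue either. Of 26 other hydrolases and transporters tested, 18 were negative with a median log2 fold change of −0.10, the farthest being Aga (−0.42) and Slc17a5 (−0.32). The proton pump that acidifies the lysosome had 8 of 17 subunits negative and a median of 0.01, and its macrophage and osteoclast subunit Atp6v0d2 stood at −1.16. Of the 6 genes that sort enzymes to lysosomes 5 were negative, with Sort1, a sorting receptor, at −0.42 ± 0.12 (edgeR adjusted p = 0.273) and Gnptab, which makes the mannose 6-phosphate tag, at −0.40. Relatives of Tfeb and the mTORC1 machinery had a median of 0.01, autophagy genes of −0.00, and the 4 cystatins tested, which inhibit cysteine cathepsins, of −0.01. Among the cystatins Cst7, a gene of activated microglia, stood at −1.23.

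In culture, the first comparison sets the amyloid beta control against the untreated library of each region. Both received the control virus, but they also differed in the cells they held. A gene was counted as higher or lower when log2 ratios of CPM + 1 were at least 2-fold in the same direction for both regions and the gene had at least 1 CPM in a library of each pair. With 1 library per group there is no replicate check and no test. By that rule 18 of the 37 members were higher with amyloid beta, where 16.6% of 14516 genes were, and 2 were lower, where 21.5% of genes were. The members' median log2 ratio was 1.13 in hippocampal and 1.24 in cortical glia, against −0.03 and −0.01 over all genes. Their share of all counts went from 0.523 to 1.42% in hippocampal and from 0.499 to 1.47% in cortical glia. The ratios of the 2 regions differed by a median of 0.21 for the members and 0.32 for all genes. The untreated libraries held the neuronal and oligodendrocyte transcripts described above, and all 9 neuronal and all 6 oligodendrocyte markers had negative ratios in both regions, with medians of −7.80 and −7.59 and of −5.98 and −7.44. Astrocyte markers had medians of 0.38 and 0.76, with 3 of 8 higher by the rule and 2 lower. Among the higher ones Gfap stood at 2.55 and 2.65 and Aqp4 at 2.70 and 2.99. The share of the members' change that goes with this change in the cells present was not tested.

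The proteases held some of the highest ratios and the lowest ones. Ctsd was at 430.1 CPM untreated and 3490.1 CPM with amyloid beta in hippocampal glia, and at 379 and 3276 CPM in cortical glia, log2 ratios of 3.02 and 3.11. Ctsb went from 532 to 2456 CPM and from 555 to 3020.1 CPM (2.21 and 2.44), and Ctsl from 87.5 to 476 CPM and from 85.8 to 556 CPM (2.43 and 2.68). Each of the 3 was thus over 4-fold higher with amyloid beta in both regions. Exons of each share bases with another annotated gene (Gm49369 for Ctsd, Fdft1 for Ctsb and the antisense RNA Gm47123 for Ctsl), and reads from those bases could be counted under either. Ctsz, an exopeptidase, followed at 2.06 and 1.61, Ctso at 1.55 and 1.42, and Tpp1 at 1.34 and 1.41. Ctsa (0.64 and 0.85) and Ctsf (0.37 and 0.19) stayed under the 2-fold line, as did Ctsh (0.88 and 0.16), and Ctsc had opposite signs (−0.60 and 1.00).

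Ctss and Ctsk went the other way. Ctss was at 70.6 CPM untreated and 9.36 CPM with amyloid beta in hippocampal glia and at 70.5 and 14.4 CPM in cortical glia, log2 ratios of −2.79 and −2.21. Ctsk had 229 counts untreated and 7 with amyloid beta in hippocampal glia, a CPM ratio of 0.0276 (95% interval 0.0110 to 0.0579, counting error only). In cortical glia it had 247 and 0 counts, at least 95.8-fold lower when 0 is set to a floor of 3 counts per library. The microglial markers lay on the same side as Ctss: 10 of 14 were at least 2-fold lower in both regions, with medians of −2.65 and −1.73, and Siglech, a defining marker, had 0 counts in all 4 libraries with amyloid beta. Csf1r, the receptor that microglia depend on, went from 120.0 to 4.74 CPM and from 120.3 to 11.4 CPM. Their part in the Ctss values was not tested.

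**Figure D3:**
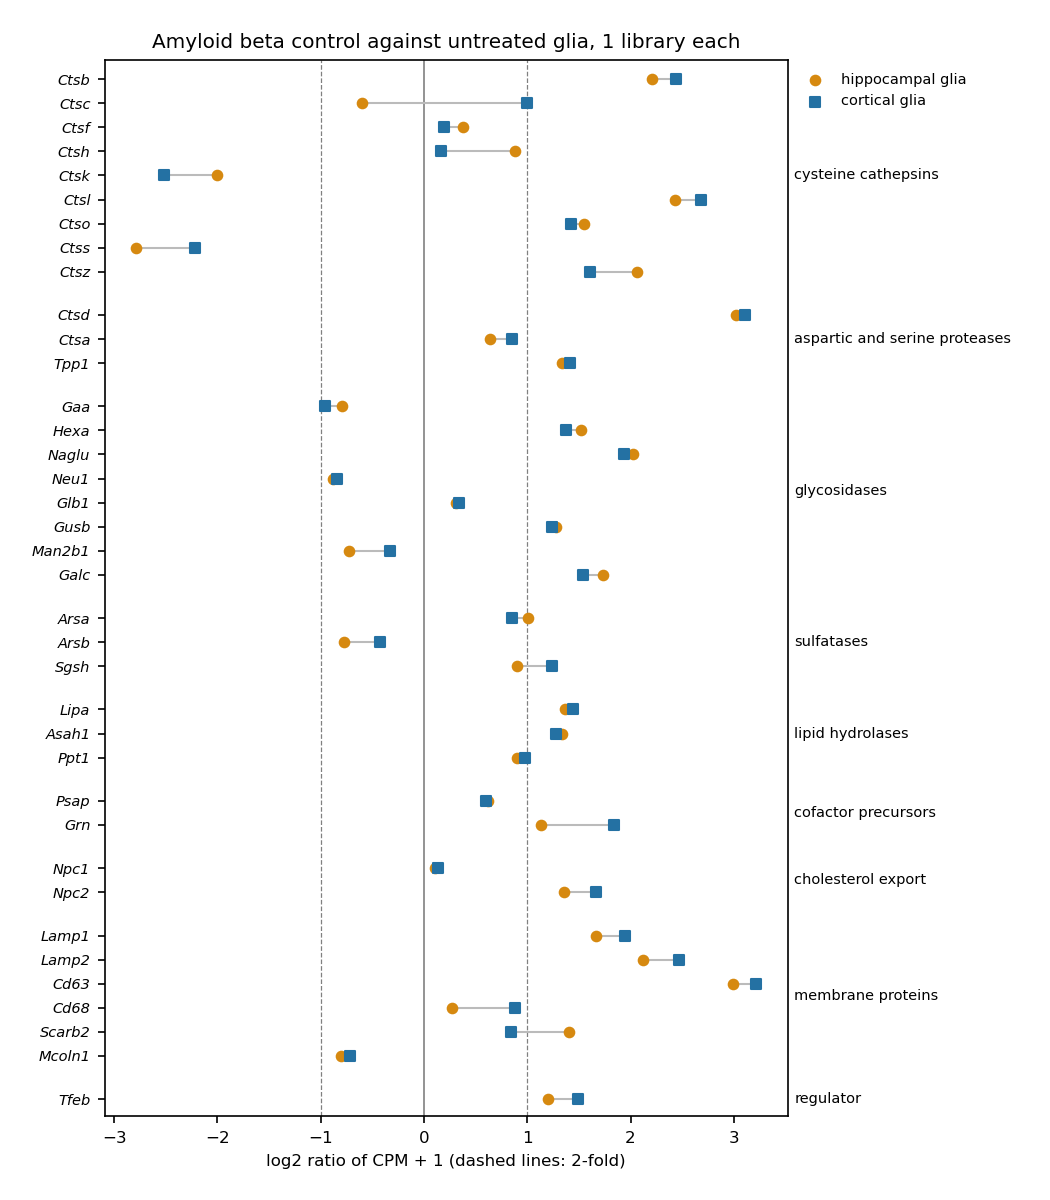
Log2 ratio of CPM + 1, amyloid beta control against untreated, on the x axis for each of the 37 members, ordered by role; circles are hippocampal and squares cortical glia, with 1 library per group, grey bars join the 2 regions of a gene and dashed lines mark 2-fold. Both symbols of 18 members lie right of the upper 2-fold line, Ctsd and Cd63 farthest, and both symbols of Ctss and Ctsk lie left of the lower one.

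Among the glycosidases 4 of 8 were higher in both regions: Naglu (2.02 and 1.93), Galc (1.73 and 1.54), Hexa (1.52 and 1.37) and Gusb (1.28 and 1.24). Gaa had lower values, 377 CPM untreated and 216 CPM with amyloid beta in hippocampal glia and 264 and 135 CPM in cortical glia (−0.80 and −0.96). Neu1 (−0.88 and −0.84) and Man2b1 (−0.73 and −0.33) also had negative ratios, none of these 3 reaching 2-fold, and Glb1 stood at 0.31 and 0.34. None of the sulfatases reached the rule in both regions, with Sgsh at 0.90 and 1.24, Arsa at 1.01 and 0.85 and Arsb at −0.77 and −0.43. Enzymes that act on heparan sulfate did not share a sign: Naglu and Sgsh had positive ratios, while Ids, from the wider pathway, stood at −1.87 and −2.09.

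Lipid and cholesterol handling was higher in part. Lipa went from 24.6 to 65.1 CPM and from 19.4 to 54.4 CPM (1.37 and 1.44), Asah1 had ratios of 1.33 and 1.28, and Npc2 went from 75.0 to 194 CPM and from 71.6 to 229.7 CPM (1.36 and 1.67). Npc1, the partner of Npc2, barely differed at 0.11 and 0.14, and Ppt1 stood at 0.90 and 0.98. Grn had ratios of 1.13 and 1.84, and Psap, at 1644 and 2525 CPM in hippocampal and 1628 and 2469.9 CPM in cortical glia, of 0.62 and 0.60. Of the membrane proteins Cd63 went from 59.1 to 477 CPM and from 52.1 to 494 CPM (2.99 and 3.22), Lamp2 from 99.2 to 435 CPM and from 83.5 to 468 CPM (2.12 and 2.47), and Lamp1 from 398 to 1268 CPM and from 384 to 1485 CPM (1.67 and 1.95). Scarb2 reached 1.40 and 0.84 and Cd68 0.28 and 0.88, while Mcoln1 was lower, at 53.7 and 30.3 CPM and at 57.6 and 34.6 CPM (−0.81 and −0.72). Tfeb went from 11.8 to 28.4 CPM and from 10.7 to 32.0 CPM, ratios of 1.20 and 1.49.

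The members with an E-box in the promoter window did not have higher median ratios than those without it, leaving out the 4 that lack an entry. Of the 11 with CACGTG 4 were higher with amyloid beta in both regions (Ctsl, Ctsd, Naglu and Lamp1), and of the 22 without it 12 were. The median ratios were 0.90 and 0.85 with the motif and 1.24 and 1.31 without it. Lamp1, with 4 copies, and Mcoln1, with a full palindrome as Ctsd has, are among the sequences above, and Mcoln1 had negative ratios in both regions. Whether the motif had a part in these ratios was not tested.

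Beyond the members, 9 of 27 other hydrolases and transporters were higher in both regions and 3 lower, with medians of 0.80 and 0.57. The higher ones included the fucosidase Fuca1 (1.90 and 2.41), the glycosylasparaginase Aga (2.80 and 2.10), the acid phosphatase Acp5 (2.01 and 2.40), the GM2 activator Gm2a (1.55 and 1.48) and the membrane protein Laptm4a (2.18 and 2.39). The lower ones included the iduronate sulfatase Ids (−1.87 and −2.09) and Laptm5 of immune cells (−2.21 and −1.03). Of the 16 proton pump subunits tested, 4 had positive ratios in each region, and the medians were −0.65 and −0.70. By the rule 5 were lower, where 21.5% of all genes were, and 2 were higher, where 16.6% were. The lower subunits included Atp6v0a1 (−2.55 and −2.29) and Atp6v0c (−2.07 and −6.01). Of the Tfeb relatives and mTORC1 genes Tfe3 was higher (1.26 and 1.12) and Rragb lower. In the autophagy list Wipi1 was higher (2.21 and 1.80), Gabarapl1 and Atg9a were lower, and the medians were −0.12 and −0.09. Of the sorting genes Sort1 was lower.

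The second culture comparison sets N+F with amyloid beta against the amyloid beta control. It shares the amyloid beta control library of each region with the first comparison, so a chance deviation of that library enters both with opposite sign. Only Man2b1 and Lipa were higher in both regions, 2 of the 36 members tested in both, where 2.07% of 13479 genes were, and 0 were lower, where 0.119% of genes were. Cortical and hippocampal glia differed. In hippocampal glia alone 2 members were 2-fold higher (5.60% of genes) and 1, Ctss, lower (0.767% of genes), with a median log2 ratio of 0.03 against 0.12 for all genes. In cortical glia alone 12 of 37 were higher (12.9% of genes) and 0 lower (15.1% of genes), with a median of 0.70 against −0.16. Over the 36 members tested in both regions the medians were 0.03 and 0.69, against 0.12 and −0.18 for all genes. TMM scaling moved them to −0.10 and 0.86, with all genes at −0.01 and −0.02, so no direction is given for the members as a group in hippocampal glia. The cortical ratio was above the hippocampal one for 31 of 36 members, for 9 of them by 2-fold or more. The same held for 4894 of 13479 genes, for 1292 of them by 2-fold or more.

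**Figure D4:**
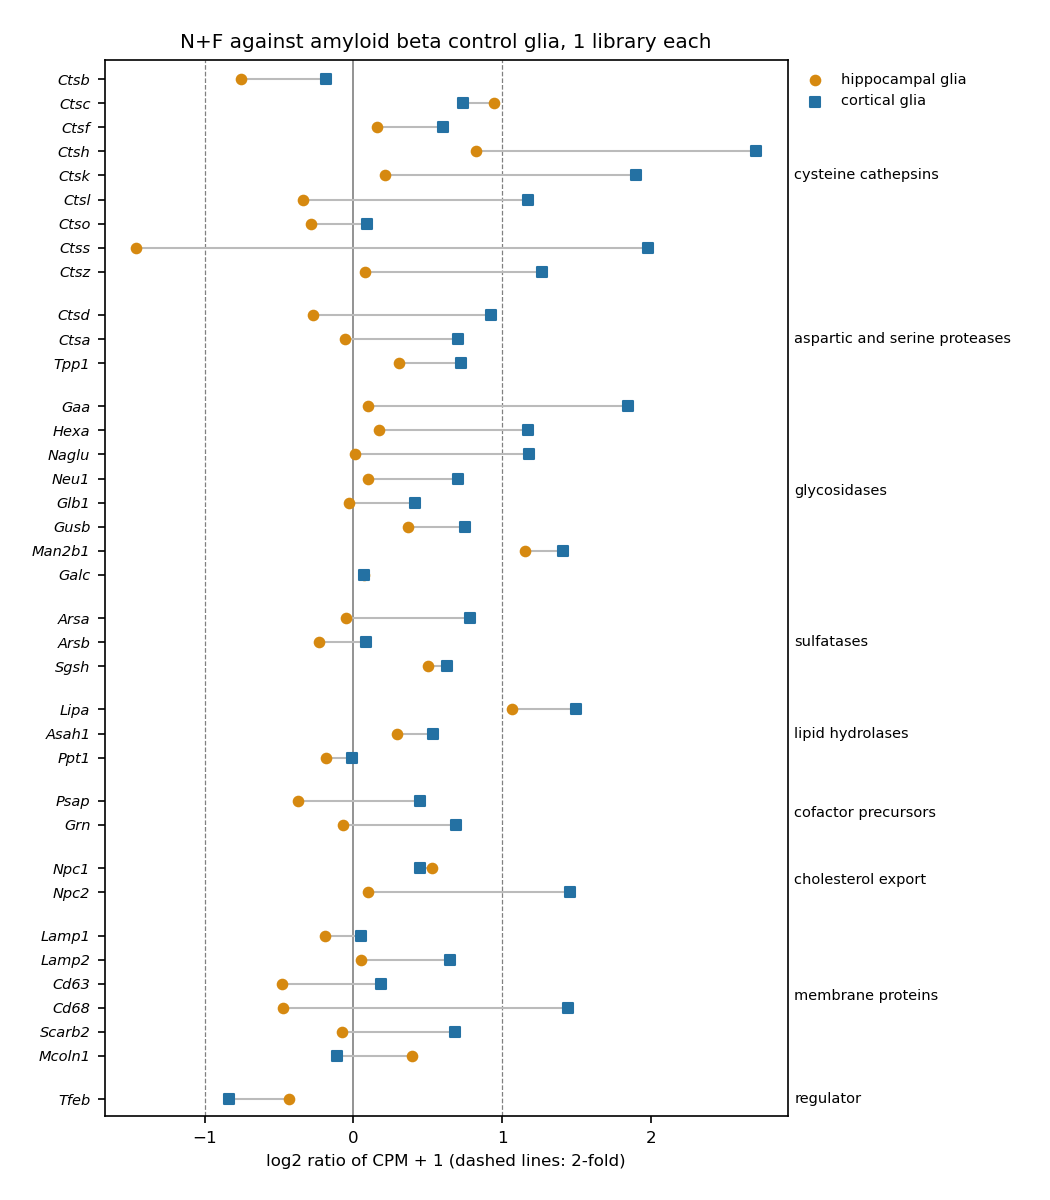
Log2 ratio of CPM + 1, N+F with amyloid beta against the amyloid beta control, on the x axis for each member, ordered by role (circles, hippocampal glia; squares, cortical glia; 1 library per group; grey bars join the regions; dashed lines mark 2-fold). Man2b1 and Lipa pass 2-fold in both regions, most cortical ratios lie above the hippocampal ones, and Ctss lies at −1.46 in hippocampal and 1.98 in cortical glia.

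Man2b1 was at 36.5 CPM in the amyloid beta control and 82.3 CPM with N+F in hippocampal glia and at 43.9 and 118 CPM in cortical glia (1.15 and 1.41). Lipa went from 65.1 to 137 CPM and from 54.4 to 155 CPM (1.06 and 1.49). Both were higher with N+F in both regions, and under TMM scaling only Man2b1 stayed past 2-fold in both. Ctsh was at 25.8 and 46.3 CPM in hippocampal and at 14.6 and 101 CPM in cortical glia (0.82 and 2.71), and Ctsc at 12.8 and 25.5 CPM and at 21.8 and 37.0 CPM (0.94 and 0.74). These 4 had positive ratios in both regions under either scaling.

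Gaa and Npc2 differed in cortical glia only. Gaa was at 216 and 231 CPM in hippocampal glia and at 135 and 488 CPM in cortical glia (0.10 and 1.84), and Npc2 at 194 and 208 CPM and at 229.7 and 632 CPM (0.10 and 1.46). The hippocampal ratio of each changes sign under TMM scaling. Other members past 2-fold in cortical glia alone were Ctsl (556 and 1253 CPM, 1.17), Ctsz (133 and 321 CPM, 1.27), Cd68 (18.8 and 52.6 CPM, 1.44), Hexa (1.17) and Naglu (1.18). Ctsk had 0 counts in the cortical control and 214 with N+F, at least 55.3-fold higher against the floor of 3 counts, and 7 and 16 counts in hippocampal glia. Ctss, singled out after its values were seen, had 9.36 and 2.76 CPM in hippocampal glia and 14.4 and 59.8 CPM in cortical glia, ratios of −1.46 and 1.98.

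Ctsd was at 3490.1 and 2892 CPM in hippocampal glia and at 3276 and 6224 CPM in cortical glia (−0.27 and 0.93). Lamp1 hardly differed, at 1268 and 1111 CPM and at 1485 and 1535 CPM (−0.19 and 0.05), and Ctsb was lower in hippocampal glia, 2456 against 1454 CPM, and at 3020.1 against 2653 CPM in cortical glia (−0.76 and −0.19). Tfeb had lower values with N+F in both regions, 28.4 against 20.7 CPM and 32.0 against 17.4 CPM (−0.44 and −0.84), neither reaching 2-fold. Lipa and Man2b1 had positive ratios, and whether Tfeb had a part in them was not tested. Apart from Tfeb, the cortical medians by role ran from 0.42 for the membrane proteins to 0.96 for the glycosidases, and the hippocampal ones from −0.22 for the cofactor precursors to 0.31 for cholesterol export.

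The cortical N+F library stood apart in other cell markers as well. Of the fibroblast and mural markers, Col1a1 went from 47.0 to 2894 CPM, Col3a1 from 1.96 to 2033 CPM and Lum from 0 to 113 CPM between the cortical libraries, while their hippocampal levels were 110.2 and 111 CPM, 31.7 and 33.6 CPM and 0.897 and 0.893 CPM. The 6 endothelial markers summed to 7.49 and 73.3 CPM and the 5 markers of border macrophages to 13.4 and 46.1 CPM in the same pair. The 6 oligodendrocyte markers summed to 171 and 438 CPM, and Mbp, a myelin protein, went from 0.873 to 179.5 CPM. The microglial markers other than Sall1 summed to 103 and 196 CPM but did not rise together. Of the 12 microglial markers tested in both regions, Sall1 included, 8 had positive cortical ratios. Itgam went from 10.5 to 50.3 CPM and Tyrobp, an adaptor of myeloid receptors, from 8.74 to 27.0 CPM. Among those that fell, Cx3cr1 went from 2.08 to 0.537 CPM, Fcrls from 3.34 to 1.71 CPM and Sall1 from 120.4 to 41.6 CPM. Their part in the cortical values of Ctsk, Ctss, Cd68 and the other members was not tested. Between regions under 1 condition, the members' median absolute log2 difference was 0.13 untreated and 0.18 in the amyloid beta controls, with 0 members at 2-fold in either. With N+F it was 0.66, and 9 members were at least 2-fold higher in cortical glia, the largest being Ctss at 4.01. Over all genes the median was 0.18 untreated, 0.26 in the amyloid beta controls and 0.56 with N+F, so the regions lay farther apart with N+F across the whole table. In the N+F libraries 24.3% of members and 24.4% of all genes were at least 2-fold apart. Of all genes 999 were 2-fold higher in cortical and 2455 in hippocampal glia.

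The 18 members that were higher with amyloid beta were also followed in the N+F libraries. Both the untreated and the amyloid beta control libraries had served to choose these 18, so the counts below follow in part from that choice. The same counts were not made for the other genes that met the rule. All 18 were above the untreated level in both regions under either scaling, and 17 in each region by 2-fold or more (16 in hippocampal glia under TMM scaling). In hippocampal glia 8 of the 18 lay below the amyloid beta control with N+F, and 13 under TMM scaling. In cortical glia 2 did under either scaling. In the wider pathway, only the pump subunit Atp6v0d2 was at least 2-fold higher with N+F in both regions: its counts went from 16 to 1202 in the hippocampal pair and from 17 to 326 in the cortical pair, log2 ratios of 4.10 and 2.01, and both untreated libraries had 0.

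Psap gave a further readout, since the culture table lists it on 6 lines that carry no transcript name. The third line held 61.8% (95% Wilson interval 61.5 to 62.0) of Psap counts in untreated hippocampal glia, 35.7% (35.5 to 35.9) with amyloid beta and 27.6% (27.3 to 27.8) with N+F. In cortical glia its share was 68.9% (68.5 to 69.2), 41.4% (41.2 to 41.7) and 19.6% (19.4 to 19.7). The second line had the opposite order, with 27.2, 52.3 and 59.1% in hippocampal and 20.3, 46.6 and 67.3% in cortical glia. So the shares moved the same way in both regions while the summed Psap level differed less than 2-fold between untreated and amyloid beta control. Of the 3 lines of Lamp2, which is known for alternative last exons, the first held 22.1% of counts in untreated hippocampal glia and 0.548% with amyloid beta, and 24.5 and 0.672% in cortical glia. The intervals cover counting error only, and the sources used here do not say how reads were divided among lines. The neuronal markers were lower in the amyloid beta controls than in the untreated libraries. Between the amyloid beta control and N+F they differed little, summing to 388 and 395 CPM in hippocampal and 367 and 375 CPM in cortical glia. Their part in the shares was not tested.

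**Figure D5:**
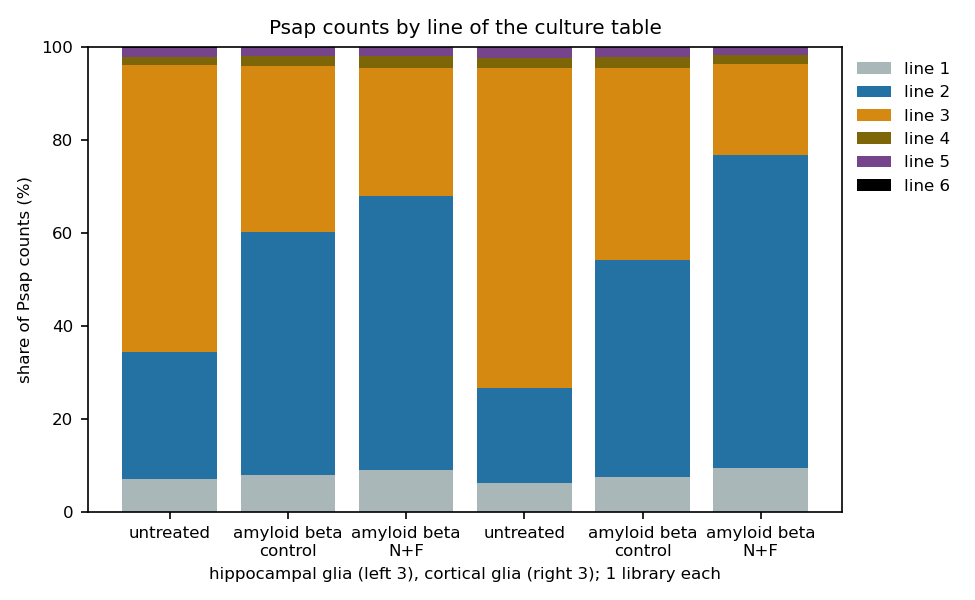
Share of Psap counts on each of its 6 lines in the culture table (stacked bars; y axis, percent of the gene's counts; x axis, the 6 libraries, hippocampal glia on the left and cortical glia on the right). The third line goes from 61.8 to 27.6% in hippocampal and from 68.9 to 19.6% in cortical glia between the untreated and N+F libraries, and the second line takes its place.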

How the data were processed

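Whole-number counts per gene symbol, as deposited by the authors, were used for 7 tissue and 6 culture libraries. Per the labels' protocols, 1.3 µg of Trizol-extracted RNA went into SMARTER library preparation. Per the submitters' processing notes, HISAT2, TopHat and edgeR were used, with neither version nor role. Those notes name hg19 although the symbols are mouse, so the build behind the counts is not established, and the coordinates printed are those of RefSeq on GRCm38.p6. Strand use in counting is not stated, so members with an exon overlapped from the opposite strand (Ctsa by Pltp, Lamp1 by Grtp1, Sgsh by Card14, for example) may share reads. Lines of a symbol were summed, which matters in culture, where 13 members have several. 0 columns were left unused.

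Totals were 10194437 to 25139406 counts per tissue library and 52189025 to 78273121 per culture library. Tissue was tested with edgeR 4.0.16 in R 4.3.3 (filterByExpr, TMM factors 0.895 to 1.11, quasi-likelihood test, Benjamini-Hochberg over 15523 genes, threshold 0.05). Biological coefficient of variation was 0.206. DESeq2 1.42.0 was an alternative. Culture used CPM of the library total with a pseudocount of 1 CPM and no test. Scripts were tested on simulated data. Replicate pairs in tissue all differed beyond sampling noise. Exon lengths are from GENCODE. The 6 members of largest change at a mean of at least 1 CPM per comparison, any member called, and Tfeb, Lamp1 and Ctsd are given by library. The members and lists were chosen with earlier results of these data known. The values of 1 gene in the wider lists are not reported here.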

Additional observations from a re-analysis of the deposited data

Results flagged for a closer look

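Scarb2, the receptor that carries glucocerebrosidase to the lysosome, was at 24.6 CPM in tissue N+F library 2, set apart by Dixon's test from the 18.0, 18.8 and 18.3 CPM of the other N+F libraries. Control libraries were at 19.9, 19.0 and 22.0 CPM. Of the 37 members tested, 1 was so marked, and chance gives such a gap in about 1 in 20 groups. Ctss had log2 ratios of opposite sign for N+F against the amyloid beta control, −1.46 in hippocampal and 1.98 in cortical glia. With 1 library per group this difference was not tested.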

How the results depend on the processing

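In tissue 0 members were called by edgeR under RLE size factors, without the count filter, with the highest line per symbol, with a replicate block and with each library left out (0 to 0), while DESeq2 called 1, Ctsk, among 145 of 15523 genes (edgeR 17). Leaving out single libraries moved the number lower at an unadjusted p under 0.05 between 1 (without control library 2) and 8 (without N+F library 1), and the median log2 fold change between −0.22 and −0.13. Replicate numbers are not known to pair the libraries. Correlations of same-numbered deviations were −0.00, −0.08 and 0.13, against −0.18 to 0.12 for the other pairs. So few pairs cannot settle whether the numbers pair animals. With the replicate block 0 members were called, 4 were lower at an unadjusted p under 0.05 and the median was −0.15.

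For amyloid beta, the members lower in both regions numbered 1 with a pseudocount of 10 CPM and 1 with a minimum of 10 CPM. With that pseudocount 16 were higher in place of 18, without Gusb and Tfeb, and the medians were 0.88 and 0.90 in hippocampal and cortical glia. For N+F, the members higher in both regions numbered 0 with a pseudocount of 10 CPM, 1 with TMM scaling and 1 with the highest line per symbol (Man2b1 in both), and 12 in cortical glia alone, and 1 was lower in hippocampal glia alone. A larger pseudocount shrinks ratios of low genes by construction; for the other settings the cause was not tested. No called value changed sign. Depth limits Ctsk in culture, with 0 to 16 counts in 3 libraries, and the culture groups have no replicates.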
